A study of Rattus norvegicus with 15 samples.

Results

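The 4 microRNAs (miRNAs) described here in rat sciatic nerve belong to 2 seed families. rno-miR-148b-3p and rno-miR-152 are of the miR-148 family, and rno-miR-26a and rno-miR-26b of the miR-26 family, where rno stands for rat and is left out below. They were chosen by name, as 4 of the 350 rat miRNAs on the array, because earlier results of the same arrays had shown them lower in injured than in uninjured nerve at several times. The members' levels in injured against uninjured nerve are therefore given as a description, and their calls against uninjured nerve are counted only to stand beside those of all miRNAs, with nothing read from them. The tests of the members compare injured times with each other, or the members with each other across injured times.

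Sciatic nerves came from adult male rats, and their total RNA was read on 15 one-colour miRNA arrays, in 5 groups of 3. Day 0 is normal nerve, called 0h or 0d in the labels, and the other groups are injured nerve taken on days 1, 4, 7 and 14. How the nerve was injured is not clear from the labels: a resection with 0.5 cm of proximal tissue in the series text, a crush with pieces of about 0.5 mm in the protocol, and both proximal stumps and injury site as names of the samples. The labels give no strain, and no drug or transgene, for any group. They do not say that the 3 arrays of a day are separate animals, so a p-value here reflects only how these samples spread, which may be technical. In a bulk sample of a whole nerve piece, fewer cells of a type and less RNA per cell cannot be told apart.

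A miRNA guides Argonaute proteins to messenger RNAs mainly by pairing of its seed, bases 2 to 8 from the 5′ end, so members of a seed family can act on many of the same messages. The miR-26 family is known from human and mouse cells to lower EZH2, the histone methyltransferase of Polycomb repressive complex 2, and its genes lie inside genes of the Ctdsp phosphatases. The miR-148 family is known to lower the DNA methyltransferase DNMT1. After a nerve injury Schwann cells leave the myelinating state and divide while leukocytes enter, and in mice Polycomb repression is known to hold part of the injury programme silent in Schwann cells.

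The mature sequences show what defines each family and how little separates its members. They are RefSeq sequences on the rat assembly GRCr8, written 5′ to 3′ with the seed in capitals.
miR-148b-3p: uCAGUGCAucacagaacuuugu
miR-152: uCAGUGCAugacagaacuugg
miR-26a: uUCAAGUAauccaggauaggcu
miR-26b: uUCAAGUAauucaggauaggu

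Within each family 19 of the 21 positions that both members have are the same. Counted from 1 at the 5′ end, with the first-named member's base first, miR-148b-3p and miR-152 differ by C10G and U20G, and miR-26a and miR-26b differ by C11U and C21U. Between the families 7 or 8 positions are the same. Of 693 mature rat miRNAs in the RefSeq table, 5 carry either seed, the 4 members and miR-148a-3p, for which this array names no probe. Probe sequences were not used here, so how far a probe also takes up another miRNA of its family, miR-148a-3p included, was not tested.

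All 4 miRNAs are encoded on the plus strand, inside the span of a protein-coding gene on the same strand. The mature miR-148b-3p lies at chr7:136299930-136299951, within Copz1 (chr7:136287696-136314131), and miR-152 at chr10:82329435-82329455, within Copz2 (chr10:82328888-82341959). Copz1 and Copz2 encode zeta subunits of the COPI vesicle coat. The mature miR-26a lies at chr8:127633063-127633084, within Ctdspl (chr8:127520478-127644999), and miR-26b at chr9:83425723-83425743, within Ctdsp1 (chr9:83422755-83428411). Ctdspl and Ctdsp1 encode small phosphatases that act on the C-terminal domain of RNA polymerase II. The gene table used gives spans without exons, so exon or intron was not resolved here.

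Each member was read by 2 probes of 10 spots, and all 4 were detected on all 15 arrays. Of the 80 member spots of an array, 74 to 79 were used, after removal of spots that the scanner software marked as outliers, and every used spot was well above background. Averaged over its probes, the background-subtracted intensity was 118 to 304 for miR-148b-3p, 311 to 658 for miR-152, 3320 to 7260 for miR-26a and 1268 to 3320 for miR-26b. No spot of any array was saturated. Probes differ in binding, so these intensities do not rank the 4 miRNAs by abundance. Levels below are log2 of the intensity divided by the array's 75th percentile over the 164 miRNAs detected everywhere, so 0 means a level equal to that percentile.

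The array of day 14 replicate 3 stood apart, with 172 detected miRNAs against 200 to 239 on the others, 5.67% outlier spots against 2.66% to 4.17%, and an additive error of 14.8 that the software placed out of range. Day 0, day 1 and day 4 each lay on a slide of their own, so slide and group cannot be told apart for them. Day 7 shared its slide with day 14 replicates 1 and 2, and its scan date with these and with day 4. Day 14 replicate 3 had a slide and a scan date of its own. On the day 1 arrays the bright corner control read 82.7 to 107, against 834 to 2549 elsewhere, and its part in the day 1 values was not tested.

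miR-148b-3p, a member of the family that acts on DNMT1, had log2 levels of -1.37, -1.12 and -1.01 on day 0, -1.99, -1.65 and -1.90 on day 1, -2.05, -2.22 and -2.10 on day 4, -2.25, -2.27 and -2.30 on day 7, and -2.48, -2.20 and -2.13 on day 14. Every injured array lay below every uninjured one. The day means were -1.17 ± 0.19, -1.84 ± 0.17, -2.13 ± 0.09, -2.28 ± 0.03 and -2.27 ± 0.19 (SD, n = 3 each). In order from high to low the days ran 0, 1, 4, 14 and 7, and the arrays of day 14 overlapped those of day 4 and of day 7. The injured level was 1.60, 1.94, 2.16 and 2.15 times below day 0 on days 1, 4, 7 and 14.

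miR-152, which shares the seed of miR-148b-3p, had log2 levels of -0.19, 0.12 and 0.10 on day 0, -0.72, -0.38 and -0.61 on day 1, -0.66, -0.82 and -0.73 on day 4, -0.80, -0.81 and -0.80 on day 7, and -0.87, -0.67 and -0.66 on day 14. Again no injured array reached the lowest uninjured one. The day means were 0.01 ± 0.17, -0.57 ± 0.18, -0.74 ± 0.08, -0.80 ± 0.0027 and -0.73 ± 0.12 (SD, n = 3 each). From day 1 on the levels of the days overlapped, apart from day 1 and day 7, where the lowest day 1 array was at -0.72 and the highest day 7 array at -0.80. The injured level was 1.50, 1.68, 1.76 and 1.68 times below day 0.

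miR-26a, the brighter member of the family that acts on EZH2, had log2 levels of 3.16, 3.42 and 3.46 on day 0, 2.92, 3.25 and 3.02 on day 1, 2.71, 2.59 and 2.60 on day 4, 2.68, 2.63 and 2.64 on day 7, and 2.81, 3.24 and 2.99 on day 14. On day 1 and on day 14 a single array lay above the lowest uninjured array, whereas day 4 and day 7 lay wholly below. The day means were 3.35 ± 0.16, 3.06 ± 0.16, 2.63 ± 0.06, 2.65 ± 0.03 and 3.01 ± 0.22 (SD, n = 3 each). Day 1 and day 14 were alike in level, as were day 4 and day 7, and these pairs did not overlap each other. The injured level was 1.22, 1.64, 1.63 and 1.26 times below day 0, so the name of a lasting decrease describes miR-26a less well than the other members.

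miR-26b, which shares the seed of miR-26a, had log2 levels of 2.21, 2.35 and 2.44 on day 0, 1.60, 1.86 and 1.62 on day 1, 1.37, 1.21 and 1.31 on day 4, 1.27, 1.17 and 1.12 on day 7, and 1.20, 1.34 and 1.43 on day 14. Every injured array lay below every uninjured one, and the days from 4 on lay below day 1. The day means were 2.34 ± 0.11, 1.69 ± 0.14, 1.29 ± 0.08, 1.18 ± 0.08 and 1.32 ± 0.12 (SD, n = 3 each). The order from high to low was day 0, 1, 14, 4 and 7, and the last 3 overlapped. The injured level was 1.56, 2.06, 2.22 and 2.02 times below day 0.

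**Figure D1:**
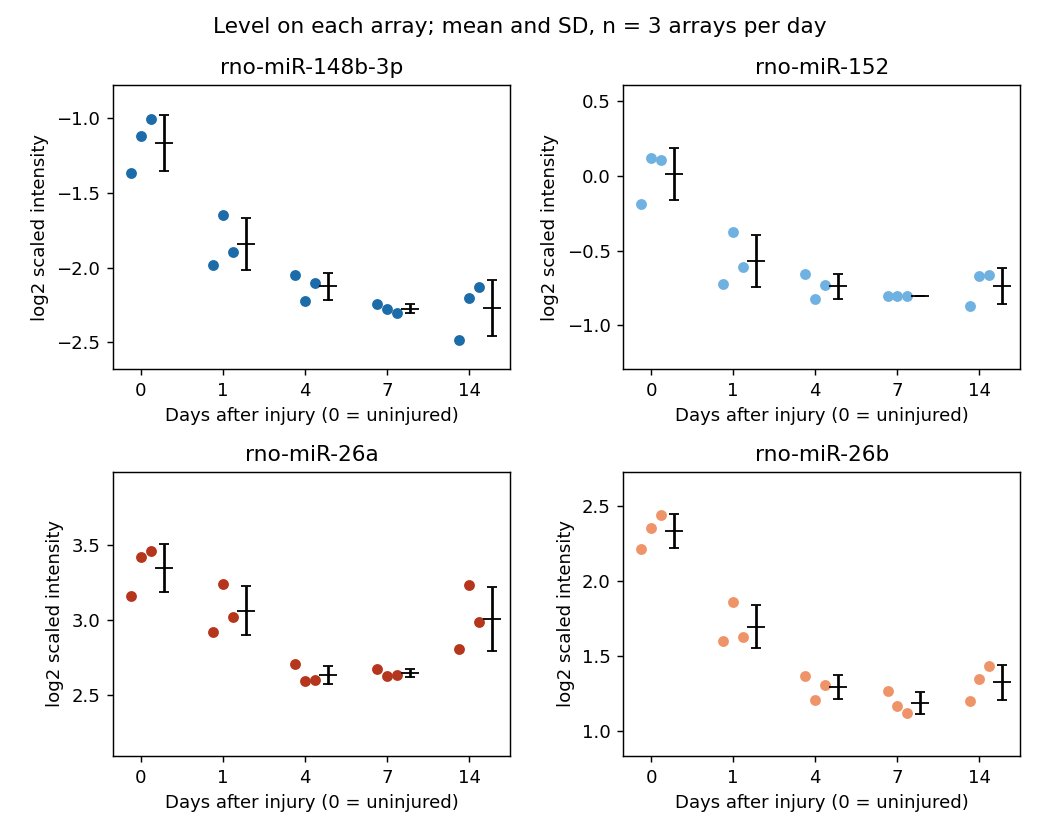
Log2 scaled intensity (vertical axes) of the 4 miRNAs on each array (points) by day after injury (horizontal axes), with the mean and SD of 3 arrays as black bars. The vertical axes cover the same span but start at different levels. miR-148b-3p, miR-152 and miR-26b stay below all day 0 arrays on all 4 injured days, whereas miR-26a is at 3.01 on day 14 and overlaps day 0.

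The 2 probes of each miRNA gave nearly the same course. Their changes from day 0 differed by at most 0.07 log2 for miR-148b-3p, 0.11 for miR-152, 0.11 for miR-26a and 0.05 for miR-26b.

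The change from day 0 is the mean log2 level of the injured day minus that of day 0. For miR-148b-3p it was -0.68, -0.96, -1.11 and -1.10 on days 1, 4, 7 and 14 (SE 0.12). For miR-152 it was -0.58, -0.75, -0.81 and -0.75 (SE 0.11), smaller on every day. For miR-26a it was -0.29, -0.71, -0.70 and -0.34 (SE 0.12). For miR-26b it was -0.64, -1.04, -1.15 and -1.01 (SE 0.10), larger on every day. These 4 comparisons share the day 0 arrays. Without day 14 replicate 3, which also changes the miRNAs that set the percentile, the day 14 changes were -1.08, -0.69, -0.23 and -0.97 for miR-148b-3p, miR-152, miR-26a and miR-26b. The day 1 changes moved further without that array, to -0.47, -0.37, -0.074 and -0.43 in the same order. Those of day 4 moved to -0.81, -0.60, -0.57 and -0.89, and those of day 7 to -0.95, -0.65, -0.54 and -0.99. The median change of all tested miRNAs moved to -0.038, -0.11, -0.16 and -0.26 on days 1, 4, 7 and 14, against -0.26, -0.26, -0.32 and -0.37 with that array. In the scaling used here miR-148b-3p and miR-26b lay further below day 0 than their seed partners on all 4 days. In the authors' deposited value table this order was kept for miR-26b, but turned for miR-148b-3p, whose change there lay above that of miR-152 by 0.13, 0.19, 0.11 and 0.20 log2.

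Many miRNAs were lower after injury on this scale, and the members are read beside them. The median change of the 231 miRNAs tested, those detected on all 3 arrays of at least 1 day, was -0.26, -0.26, -0.32 and -0.37. By limma with Benjamini-Hochberg adjustment at 0.05, 43.7%, 45.5%, 45.5% and 50.6% of the 231 were called lower on days 1, 4, 7 and 14. The members called lower were 3 on day 1, without miR-26a, and 4 on each later day. The share of the 231 whose injured arrays all lay below all day 0 arrays was 38.1%, 51.9%, 54.1% and 46.8%, and the members that did so were 3, 4, 4 and 3. As the members were chosen from these comparisons, nothing is read from their counts. Counted from the most lowered of the 231, miR-26b ranked 38, 10, 17 and 23 and miR-148b-3p 33, 17, 20 and 13. miR-152 ranked 52, 44, 43 and 53, and miR-26a 110, 53, 58 and 120.

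**Figure D2:**
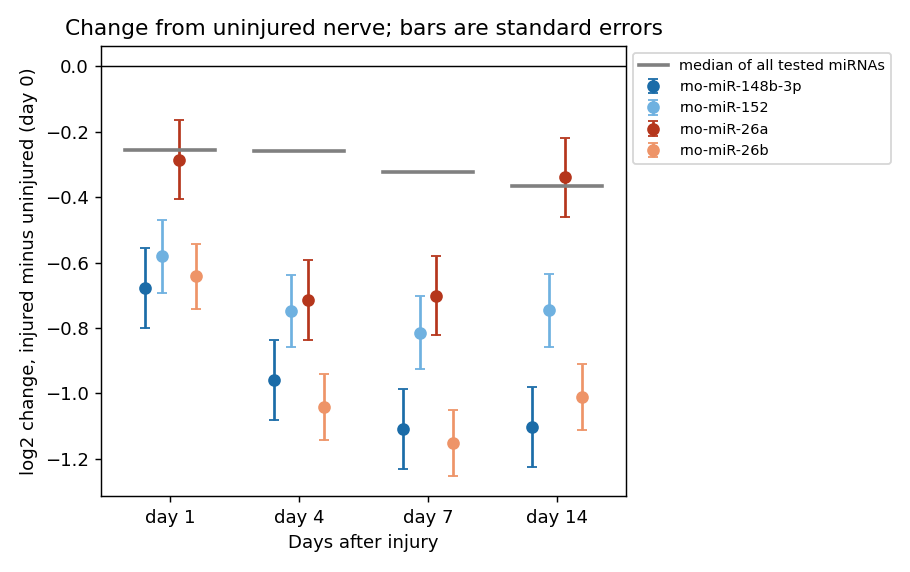
Log2 change from uninjured nerve (vertical axis) of each member on days 1, 4, 7 and 14 (horizontal axis), as injured minus day 0, with standard errors as bars, and the median change of the 231 tested miRNAs as grey lines. miR-26a lies near the grey line on days 1 and 14 (-0.29 and -0.34 beside -0.26 and -0.37), and the other 3 lie below it on every day.

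The scaling of the arrays sets the size of these changes. Relative to the median change, miR-148b-3p lay at -0.42, -0.70, -0.79 and -0.74 on days 1, 4, 7 and 14, and miR-26b at -0.39, -0.78, -0.83 and -0.65. miR-152 lay at -0.33, -0.49, -0.49 and -0.38, and miR-26a at -0.030, -0.46, -0.38 and 0.027. Over 5 scalings the day 14 value relative to the median ranged between -0.74 and -0.56 for miR-148b-3p, -0.76 and -0.38 for miR-152, -0.65 and -0.34 for miR-26b, and -0.13 and 0.027 for miR-26a. The scaling used here, the percentile over all 350 miRNAs and no scaling differ by a factor per array, which cancels when the median is subtracted. These 3 gave the same day 14 values, so only quantile normalisation and the deposited value table could differ from them. In both, the same 3 members stayed below the median of all tested miRNAs on day 14. miR-26a was at -0.070 and -0.13 there, against 0.027 in the scaling used here. Without subtracting the median, the day 14 change of miR-26a was 0.020 with the percentile taken over all 350 miRNAs and 0.044 with no scaling.

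The same choice moved the split of all calls. With the percentile over all miRNAs, 85, 74, 63 and 54 of the 231 were called lower on days 1, 4, 7 and 14 and 57, 74, 82 and 70 higher, whereas the scaling used here gave 101, 105, 105 and 117 lower and 39, 47, 40 and 37 higher. With the percentile over all miRNAs the median change was -0.080, 0.054, 0.040 and -0.0077. Quantile normalisation gave 87, 86, 74 and 83 lower and 57, 68, 59 and 61 higher, and no scaling gave 127, 124, 87 and 42 lower and 32, 33, 42 and 64 higher. The authors' deposited value table gave 61, 76, 61 and 69 lower and 48, 61, 55 and 54 higher.

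**Figure D3:**
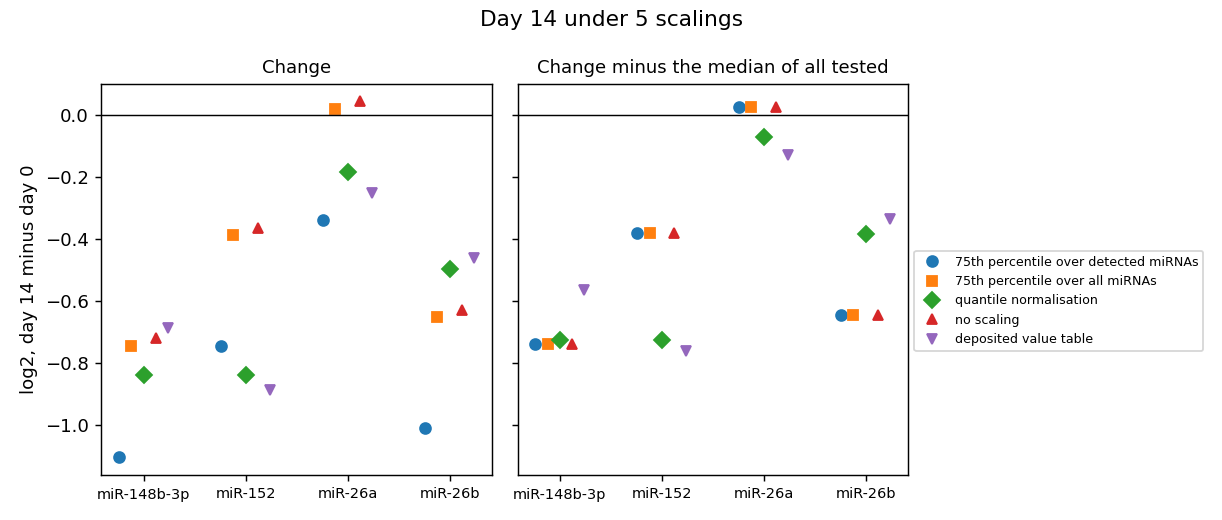
Log2 change of each member (horizontal axis) on day 14 minus day 0 under 5 scalings (symbols), as it stands (left) and relative to the median change of all tested miRNAs (right). miR-148b-3p, miR-152 and miR-26b lie below 0 under all 5 scalings in both panels, whereas miR-26a lies on either side of 0. In the right panel the scalings that differ by a factor per array coincide.

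Whether the members went on changing after day 1 was tested among the injured days. The members were chosen for low levels at several injured times against day 0. The injured values thus entered the choice, and these tests are not independent of it. By limma's F test over days 1, 4, 7 and 14, 3 of the 4 members differed between days, where 69.7% of the 231 did so. These were miR-26b (F = 9.72, adjusted p = 0.00307), miR-26a (F = 7.22, adjusted p = 0.00803) and miR-148b-3p (F = 5.47, adjusted p = 0.0191). miR-152 did not pass (F = 1.60, adjusted p = 0.266), but passed with quantile normalisation (F = 5.15), with no scaling (F = 5.33) and in the deposited value table (F = 6.08). miR-148b-3p did not pass with no scaling (F = 2.89, limma adjusted p = 0.0848) or without day 1 replicate 2 (F = 3.14, adjusted p = 0.0876). Without day 14 replicate 3, F was 14.6 for miR-26b, 8.06 for miR-26a, 10.4 for miR-148b-3p and 3.91 for miR-152, with the same 3 members passing.

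From day 1 to day 4 both members of the miR-26 family fell further. On day 4 miR-26a averaged 2.63, against 3.06 on day 1, a change of -0.43 ± 0.12 log2 (SE, n = 3 each, limma adjusted p = 0.0104). miR-26b averaged 1.29 on day 4, against 1.69 on day 1, a change of -0.40 ± 0.10 log2 (SE, n = 3 each, limma adjusted p = 0.00556). In both, all 3 day 4 arrays lay below all 3 day 1 arrays. Of the 231 miRNAs 23.8% were called lower in this comparison, and 32% had day 4 arrays all below day 1, beside 2 and 3 of the 4 members. The call of miR-26a held under 5 of 5 scalings, and that of miR-26b under 3, with -0.18 and adjusted p = 0.0582 by limma after quantile normalisation and -0.21 and adjusted p = 0.0557 in the deposited value table. The change of miR-26a was -0.26 in the deposited table and -0.20 after quantile normalisation.

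The day 4 means of the miR-148 family lay below those of day 1 without passing the test. miR-148b-3p differed by -0.28 ± 0.12 log2 (SE, n = 3 each, limma adjusted p = 0.0677, 95% interval -0.55 to -0.02), with all 3 day 4 arrays below all 3 day 1 arrays. It was called under 0 of 5 scalings, with limma adjusted p of 0.0677 to 0.222. With single arrays left out, it passed without day 14 replicate 3 (-0.35, limma adjusted p = 0.0191) and without day 1 replicate 1 (-0.35, limma adjusted p = 0.0455). It also passed without day 0 replicate 1 or day 14 replicate 1 (limma adjusted p = 0.047 and 0.0468), where the change stayed at -0.28. Leaving out any other array gave no call. miR-152 differed by -0.17 ± 0.11 log2 (SE, n = 3 each, limma adjusted p = 0.231, 95% interval -0.41 to 0.07), and its arrays overlapped. Day 1 and day 4 lay on different slides and scan dates, so these cannot be told apart from the time.

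Between day 4 and day 7, scanned on one date but on different slides, no member passed the test, and 6.06% of the 231 miRNAs did in either direction. Day 7 minus day 4 was -0.15 for miR-148b-3p, -0.07 for miR-152, 0.01 for miR-26a and -0.11 for miR-26b, with limma adjusted p of 0.496, 0.751, 0.953 and 0.538. The 95% intervals ran from -0.41 to 0.11, -0.31 to 0.17, -0.25 to 0.27 and -0.33 to 0.11. With 3 arrays a day, changes within those limits remain compatible with these values.

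Between day 7 and day 14 miR-26a stood out among the 4 by size, but did not pass the test. In either direction 13.9% of the 231 miRNAs passed. miR-26a averaged 3.01 on day 14, against 2.65 on day 7, a difference of 0.36 ± 0.12 log2 (SE, n = 3 each, limma adjusted p = 0.0575, 95% interval 0.10 to 0.62), and all 3 day 14 arrays lay above all 3 day 7 arrays. In this comparison 4.76% of the 231 miRNAs were called higher, and 15.6% had day 14 arrays all above day 7. Within the slide that holds day 7 and day 14 replicates 1 and 2 the difference was 0.38 (limma adjusted p = 0.132). After quantile normalisation the difference was 0.036 (limma adjusted p = 0.673) and it was 0.051 in the deposited value table (limma adjusted p = 0.597). It passed with the percentile over all miRNAs (0.36, limma adjusted p = 0.00498), with no scaling (0.64, limma adjusted p = 0.00212), with normexp background correction (0.39, limma adjusted p = 0.0362) and without day 14 replicate 1 (0.46, limma adjusted p = 0.028). It also passed without day 0 replicate 1 or day 1 replicate 2, with limma adjusted p of 0.0411 and 0.0445, and did not pass without day 14 replicate 3 (0.31, limma adjusted p = 0.155).

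The other members differed less between these days. Day 14 minus day 7 was 0.14 for miR-26b (limma adjusted p = 0.38), 0.07 for miR-152 (limma adjusted p = 0.702) and 0.0043 for miR-148b-3p (limma adjusted p = 0.986). With no scaling miR-26b was higher on day 14 (0.42, limma adjusted p = 0.0343), and miR-152 and miR-148b-3p were at 0.35 and 0.28 without passing (limma adjusted p = 0.0637 and 0.142). Within the shared slide the same differences were 0.087, 0.032 and -0.066, with limma adjusted p of 0.687, 0.921 and 0.823.

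Over the whole injured course, day 14 against day 1, one member of each family was lower. These days lay on different slides and scan dates, which cannot be told apart from the time. miR-148b-3p averaged -2.27 on day 14, against -1.84 on day 1, a change of -0.43 ± 0.12 log2 (SE, n = 3 each, limma adjusted p = 0.00954). miR-26b averaged 1.32 on day 14, against 1.69 on day 1, a change of -0.37 ± 0.10 log2 (SE, n = 3 each, limma adjusted p = 0.00709). Both had all 3 day 14 arrays below all 3 day 1 arrays. Of the 231 miRNAs 31.2% were called lower and 32% had day 14 arrays all below day 1. Without day 14 replicate 3 the changes were -0.62 and -0.54 (limma adjusted p = 0.00128 and 0.00125). With no scaling neither was lower, at 0.10 and 0.16, and miR-26b lost its call after quantile normalisation (-0.14, limma adjusted p = 0.151) and in the deposited value table (-0.15, limma adjusted p = 0.151).

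Their seed partners did not pass in this comparison. miR-152 differed by -0.16 ± 0.11 log2 (SE, n = 3 each, limma adjusted p = 0.217, 95% interval -0.40 to 0.07), and by -0.32 without day 14 replicate 3, where it passed (limma adjusted p = 0.028). It also passed after quantile normalisation (-0.31, limma adjusted p = 0.00626) and in the deposited value table (-0.39, limma adjusted p = 0.00564). With no scaling miR-152 was higher on day 14 than on day 1 (0.36, limma adjusted p = 0.0326), and with the percentile over all miRNAs the difference was 0.019 (limma adjusted p = 0.813). miR-26a differed by -0.05 ± 0.12 log2 (SE, n = 3 each, limma adjusted p = 0.722, 95% interval -0.31 to 0.21), and its arrays on the 2 days overlapped. It was lower in the deposited value table (-0.18, limma adjusted p = 0.0243) and higher with no scaling (0.47, limma adjusted p = 0.00215).

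Whether members of one family kept step was read from the log2 difference of a pair of members on the same array, which does not depend on the scaling factor of that array. Its size at any one time depends on the probes, so only its course over the days is read. The 6 possible pairs were compared over the 12 injured arrays with an exact permutation test of the one-way F over all 15400 divisions into 4 groups of 3, adjusted over the 6 pairs by Benjamini-Hochberg. The smallest p this test can give is 6.49e-05. Day 0 values are given beside it as a description, and for days 1 and 4 slide and time cannot be told apart.

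miR-26a minus miR-26b was 0.95, 1.07 and 1.02 on day 0, 1.33, 1.39 and 1.40 on day 1, 1.34, 1.39 and 1.30 on day 4, 1.41, 1.46 and 1.52 on day 7, and 1.61, 1.89 and 1.56 on day 14. The 3 day 0 arrays lay below all injured ones and the 3 day 14 arrays above all others. The day means of 1.37, 1.34, 1.46 and 1.69 on days 1, 4, 7 and 14 spanned 0.34 log2, which passed the exact permutation test (adjusted p = 0.000877). The gap was 0.36, 0.33, 0.45 and 0.67 log2 wider than the day 0 mean of 1.01. On the slide shared by day 7 and day 14 the day 14 values, 1.61 and 1.89, also lay above the day 7 values.

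miR-148b-3p minus miR-152 was -1.18, -1.24 and -1.11 on day 0, -1.26, -1.27 and -1.29 on day 1, -1.39, -1.40 and -1.37 on day 4, -1.45, -1.47 and -1.50 on day 7, and -1.61, -1.53 and -1.47 on day 14. The arrays of days 1, 4 and 7 did not overlap, whereas day 14 replicate 3 lay among those of day 7. The day means of -1.27, -1.39, -1.47 and -1.54 spanned 0.26 log2, which passed the exact permutation test (adjusted p = 0.000519). Its change from the day 0 mean of -1.18 was -0.10, -0.21, -0.29 and -0.36 log2.

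**Figure D4:**
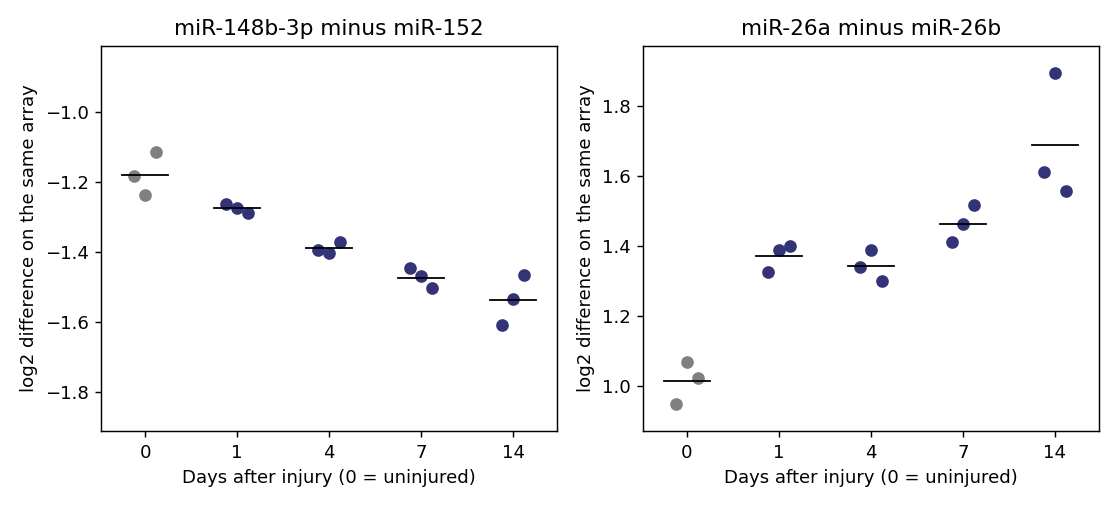
Log2 difference between the 2 members of each family on the same array (vertical axes; points are arrays, lines the mean of 3) by day after injury (horizontal axes), with day 0 in grey. On these background-subtracted intensities both differences moved away from their day 0 values, to -1.54 for miR-148b-3p minus miR-152 and 1.69 for miR-26a minus miR-26b on day 14. After quantile normalisation miR-148b-3p minus miR-152 was -1.33 on both day 14 and day 0, and in the deposited value table it moved the other way.

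Between the families, the pair that varied least over the injured days was miR-148b-3p with miR-26b, the more lowered member of each. Their difference averaged -3.54, -3.42, -3.46 and -3.59 on days 1, 4, 7 and 14, against -3.50 on day 0, a span of 0.18 log2 (exact permutation test, adjusted p = 0.00468). The pair that varied most was miR-148b-3p with miR-26a, at -4.91, -4.76, -4.92 and -5.28 on the injured days and -4.52 on day 0, a span of 0.52 (exact permutation test, adjusted p = 0.000519). miR-152 minus miR-26a spanned 0.37 (exact permutation test, adjusted p = 0.00039) and miR-152 minus miR-26b 0.28 (exact permutation test, adjusted p = 0.00468). No test compared one span with another, and the within-family spans of 0.34 and 0.26 lay between the smallest and the largest span of the pairs across families. This placing turned with the normalisation: after quantile normalisation both within-family spans, 0.12 and 0.12, were below all 4 spans across families, 0.18 to 0.26. In the deposited value table they were again below, at 0.092 and 0.12 against 0.24 to 0.27.

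The pair results rest on the background-subtracted intensities. Pairs of other miRNAs were not tested, so no share of passing pairs stands beside the 6. By limma's F test 69.7% of the 231 miRNAs differed between the injured days, so a passing pair is not read as a trait of the members. All 6 passed with the software's total gene signal, with normexp background correction and without any one injured array, and failed after quantile normalisation (adjusted p of 0.129 to 0.465) and in the deposited value table (adjusted p of 0.148 to 0.737) by the same exact permutation test. After quantile normalisation the span was 0.12 for both within-family pairs, and the day means of miR-148b-3p minus miR-152 were -1.33 on both day 14 and day 0. In the deposited table the spans were 0.092 for miR-148b-3p minus miR-152 and 0.12 for miR-26a minus miR-26b. There miR-148b-3p minus miR-152 lay above its day 0 mean, by 0.13, 0.19, 0.11 and 0.20 on days 1, 4, 7 and 14, the opposite direction. The gap of miR-26a over miR-26b was still wider on every injured day than on day 0, by 0.30, 0.29, 0.41 and 0.31 after quantile normalisation and by 0.24, 0.19, 0.31 and 0.21 in the deposited table.

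Across the 15 arrays Pearson's r was 0.98 for miR-148b-3p with miR-152, 0.86 for miR-26a with miR-26b, and 0.98 for miR-148b-3p with miR-26b. Across the 12 injured arrays these were 0.92, 0.75 and 0.93, and the lowest of the 6 pairs was miR-148b-3p with miR-26a at 0.57. The values of a pair share an array, its slide and its scaling factor, and the arrays of a day share that day, so these are descriptions. By this measure, taken only in the scaling used here, miR-26b lay as close to miR-148b-3p as miR-152 did, and closer than to its seed partner. The correlations were not computed after quantile normalisation or in the deposited value table, where the spans of the pairs were smallest within the families.

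The tested miRNAs outside a family with the most similar course over the 15 arrays were, for the mean of miR-148b-3p and miR-152, miR-340-3p (r = 0.988), let-7a (0.987), let-7d (0.987), miR-26b (0.984) and miR-196b (0.980). For the mean of miR-26a and miR-26b they were let-7c (0.990), miR-100 (0.984), miR-9* (0.984), miR-30c (0.977) and miR-331 (0.973). The median r of the 231 was 0.44 with the first family mean and 0.41 with the second. These values of r were also taken only in the scaling used here. The 3 least similar were the same for both families: miR-21, miR-31 and miR-130b, with r from -0.96 to -0.92. miR-21 was 1.51, 3.03, 3.19 and 2.68 log2 above day 0 on days 1, 4, 7 and 14. miR-31 was detected on 12 of the 15 arrays and miR-130b on 10.

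The opposite arms of 2 members' hairpins have probes as well. In the hairpin of miR-26b, at chr9:83425709-83425793, the capitals mark miR-26b on the 5′ side and its opposite arm, miR-26b* on this array, on the 3′ side.
Mir26b: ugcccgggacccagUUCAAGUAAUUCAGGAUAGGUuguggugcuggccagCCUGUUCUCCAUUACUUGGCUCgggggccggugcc

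miR-26b* and miR-148b-5p were detected on 0 of 15 arrays, so for these hairpins the array gave a level for the member's arm alone.

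Other miRNAs that are reported to act on the same enzymes are given for comparison, as 2 lists that overlap the most similar miRNAs above. Of 11 miRNAs reported to act on EZH2 as miR-26 does (miR-101a, miR-101b, miR-138, let-7a, let-7b, let-7c, let-7d, let-7e, let-7f, let-7i and miR-98), 9, 10, 10 and 10 were called lower than day 0 on days 1, 4, 7 and 14, and 0 higher, by limma, where 43.7%, 45.5%, 45.5% and 50.6% of the 231 were called lower. Their median change was -0.57, -0.77, -0.74 and -0.73, beside -0.26, -0.26, -0.32 and -0.37 for all 231. miR-138, also abundant in myelinating glia, changed by -0.01, -0.97, -1.69 and -1.75, and passed the test from day 4 on. miR-101a fell on all 4 days, at -0.80, -0.72, -0.55 and -0.37, whereas miR-101b was at -0.20, -0.01, 0.10 and 0.17 and passed on none of them. let-7a, of the family that with miR-98 makes up most of the list, fell at -0.57, -0.86, -0.88 and -0.79. Of the 11, 4, 5, 4 and 5 were called lower in the deposited table, with medians of -0.078, -0.20, -0.13 and -0.16, and after quantile normalisation 5, 6, 5 and 5. On days 4, 7 and 14, 1 of the 11 was called higher with the percentile over all miRNAs, in the deposited table and after quantile normalisation. With no scaling 1 was called higher and 5 lower on day 14.

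The 5 miRNAs reported to act on DNA methyltransferases as the miR-148 family does (miR-29a, miR-29b, miR-29c, miR-185 and miR-342-3p) ran otherwise. By limma 1, 2, 2 and 2 of them were higher than day 0 on days 1, 4, 7 and 14, and 0, 0, 1 and 1 lower, where 16.9%, 20.3%, 17.3% and 16% of the 231 were called higher and 43.7%, 45.5%, 45.5% and 50.6% lower. These counts moved with the scaling, to 3, 4, 3 and 3 higher and 0 lower with the percentile over all miRNAs. The deposited table and quantile normalisation each gave 3 higher on each day and 0, 1, 2 and 2 lower. With no scaling 0, 1, 2 and 3 were higher and 1, 0, 1 and 0 lower. Their median change was 0.09, 0.13, 0.16 and 0.20, but -0.054 and -0.019 on days 1 and 4 with no scaling. miR-29b rose on all 4 days, at 0.32, 1.01, 0.66 and 0.57, and miR-29a was at 0.09, 0.32, 0.28 and 0.20, passing on days 4 and 7. miR-29c was at -0.26, -0.08, -0.25 and -0.25 and did not pass, and miR-185 was at 0.11, -0.16, -0.52 and -0.52, passing on days 7 and 14. miR-342-3p was at -0.12, 0.13, 0.16 and 0.36, and passed on day 14 (limma adjusted p = 0.0113).

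Marker miRNAs of cell types moved over the same days. The summed scaled level of 4 miRNAs of myelinating glia (miR-338, miR-138, miR-204 and miR-211) was 16.9 to 25.9 on day 0, 11.1 to 14.7 on day 1, 8.73 to 10.2 on day 4, 8.90 to 9.78 on day 7 and 10.3 to 13.9 on day 14. By limma 3, 3, 3 and 4 of the 4 were lower than day 0 on days 1, 4, 7 and 14 and 0 higher, beside 43.7%, 45.5%, 45.5% and 50.6% of the 231 called lower, and miR-211 was not detected on day 1. On day 14 the 4 became 2 with the percentile over all miRNAs, 1 after quantile normalisation, 1 with no scaling and 2 in the deposited table, and on the earlier days 2 or 3 were lower in each of these. The summed level of 4 leukocyte miRNAs (miR-223, miR-142-3p, miR-142-5p and miR-150) was 1.42 to 1.69 on day 0, 2.94 to 4.05 on day 1, 2.63 to 2.99 on day 4, 2.66 to 2.95 on day 7 and 1.89 to 2.51 on day 14. By limma 3, 3, 3 and 2 of these 4 were higher, and 0, 1, 1 and 1 lower, beside 16.9%, 20.3%, 17.3% and 16% of the 231 called higher and the shares called lower just given. The 1 lower was miR-150. The glial sum was lowest on days 4 and 7 and the leukocyte sum highest on day 1, but single markers differed in course. Against day 0, miR-338 and miR-204 were lowest on day 4 (-1.27 and -0.66), miR-138 on day 14 (-1.75) and miR-211 on day 1 (-1.41). miR-223 was highest on day 1 (1.79), whereas miR-142-3p and miR-142-5p were highest on day 7 (1.54 and 1.31).

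The remaining marker lists moved less uniformly. The 5 skeletal muscle miRNAs summed to 0.452 to 0.560 on day 4, against 0.738 to 16.3 on day 0, where the median was 1.24. On days 1, 7 and 14 they summed to 1.66 to 3.96, 0.270 to 0.849 and 0.881 to 2.23. The 2 erythrocyte miRNAs summed to 3.04 to 9.53 on day 1, against 0.734 to 3.98 on day 0. On days 4, 7 and 14 they summed to 1.72 to 3.70, 1.09 to 2.61 and 1.17 to 1.37. The 2 endothelial arms of miR-126 summed to 2.18 to 2.51 on day 1, against 3.16 to 3.45 on day 0. On days 4, 7 and 14 these arms summed to 2.73 to 3.01, 2.77 to 2.96 and 2.26 to 2.88. The sum of miR-143 with miR-145, of smooth muscle, was 2.05 to 2.58 on day 14, against 3.42 to 3.91 on day 0. On days 1, 4 and 7 it was 3.24 to 3.50, 2.27 to 2.68 and 2.48 to 2.73. The part of changing cell types in the members' values was not tested.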

How the data were processed

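Per the file headers, the deposited spot intensity values come from Agilent Feature Extraction, version 10.7.3.1, which subtracted background but did not scale arrays to each other. Per the labels' protocols, labelling with cyanine 3 started from 0.1 µg of mirVana-isolated RNA. The authors also deposited a table of 349 miRNAs whose values are log2, judged from their range. Its array medians ran from 0.834, on day 14 replicate 3, to 4.28. How it was normalised is not given in the sources used here, and it served as an alternative.

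Control spots and outlier spots were left out, spots averaged per probe and probes per miRNA, and each array divided by its 75th percentile over 164 miRNAs. Values under 0.00362 were set to it and log2 taken (floor -8.11). limma 3.58.1 (R 4.3.3) fitted 5 day means to 231 miRNAs with 10 residual and 3.28 prior degrees of freedom. Tests were two-sided, with Benjamini-Hochberg adjustment over the 231 at 0.05. The step was tested on simulated data. Python 3.11.15, pandas 2.3.3, scipy 1.17.1 and matplotlib 3.10.9 were used. The normexp alternative (offset 50) used median spot signals, since the files read hold no mean signal. Other alternatives changed the scaling, the signal column, the detection filter, the probe summary, the slide, the replicate number as a block, and left out each array. The number of arrays limits the precision.

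The members, lists and tests were chosen with earlier results of these data known. Named miRNAs are the members, those sharing a seed or hairpin with them, the 5 most and 3 least similar per family, and list members in list order. RefSeq names were matched for 304 of 350 array miRNAs.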

Additional observations from a re-analysis of the deposited data

Results flagged for a closer look

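Each of the following differed between injured days by limma's test (adjusted p under 0.05 over the 231 miRNAs, n = 3 arrays each). miR-26a on day 4 against day 1 changed by -0.43 log2, and miR-26b by -0.40 log2. On day 14 against day 1, miR-148b-3p changed by -0.43 log2 and miR-26b by -0.37 log2. In each case all 3 later arrays lay below all 3 day 1 arrays. Of the 231 miRNAs 23.8% were called lower on day 4 against day 1 and 31.2% on day 14 against day 1. In each comparison 32% had all later arrays below day 1. Day 1 had a slide and a scan date of its own, so these cannot be told apart from the time in either comparison. The injured values entered the choice of the members, so these tests are not independent of it. Both calls of miR-26b were lost after quantile normalisation and in the deposited value table. With no scaling the day 14 changes were 0.10 for miR-148b-3p and 0.16 for miR-26b. Whether one member's change differed from another's in these comparisons was tested only through the differences of pairs over all injured days.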

How the results depend on the processing

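Arrays of 3 per day limit the precision, and the members' signals were well above background on all of them. Counts of calls over the 231 miRNAs moved by over 1.5 times in the following cases. For day 14 against day 7 the 32 calls became 15 within the shared slide, 62 with the percentile over all miRNAs, 82 with no scaling, 21 in the deposited table and 18 over miRNAs detected on all arrays. For day 7 against day 4 the 14 calls became 22 with the percentile over all miRNAs, 34 with quantile normalisation, 31 with no scaling, 22 in the deposited table and 5 over miRNAs detected everywhere. For day 4 against day 1 the 119 calls became 79 with normexp. The F test of miR-152 passed with quantile normalisation (5.15), no scaling (5.33) and the deposited table (6.08), and that of miR-148b-3p failed with no scaling (2.89).

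The spans of the 6 pair differences lost their calls under quantile normalisation and when taken from the deposited table, given in that order. They were 0.12 and 0.092 for miR-148b-3p minus miR-152, 0.21 and 0.26 for miR-148b-3p minus miR-26a, 0.18 and 0.24 for miR-148b-3p minus miR-26b, 0.26 and 0.27 for miR-152 minus miR-26a, 0.24 and 0.25 for miR-152 minus miR-26b, and 0.12 and 0.12 for miR-26a minus miR-26b. The cause was not tested.

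Signs turned as follows. With no scaling, day 7 minus day 4 was 0.11 for miR-148b-3p, 0.19 for miR-152 and 0.15 for miR-26b, and day 14 minus day 1 was 0.10 for miR-148b-3p, 0.36 for miR-152, 0.47 for miR-26a and 0.16 for miR-26b. miR-26a on day 14 minus day 0 was 0.044 with no scaling and 0.020 with the percentile over all miRNAs. With that percentile day 14 minus day 1 was 0.019 for miR-152 and 0.13 for miR-26a. For day 14 minus day 7, miR-152 was at -0.091 by quantile normalisation and -0.084 by the deposited table, and miR-148b-3p at -0.066 within the shared slide and -0.025 with normexp. The median change of all tested miRNAs with no scaling was -0.39, -0.41, -0.22 and 0.017 on days 1, 4, 7 and 14 against day 0.

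Without one array at a time, calls numbered 116 to 150, 138 to 158, 133 to 150 and 137 to 165 for days 1, 4, 7 and 14 against day 0, 90 to 134 for day 4 against day 1, 5 to 18 for day 7 against day 4, 11 to 45 for day 14 against day 7, 117 to 138 for day 14 against day 1 and 142 to 168 for the F test. The fewest of 5 for day 7 against day 4 came without day 4 replicate 1, day 4 replicate 3 or day 7 replicate 1, with 7 and 9 without day 7 replicates 2 and 3. For day 14 against day 7 the count was 14, 11 and 20 without day 7 replicates 1, 2 and 3. F ranged from 3.14 to 10.4 for miR-148b-3p, 0.54 to 3.91 for miR-152, 5.70 to 9.91 for miR-26a and 6.44 to 14.6 for miR-26b. Pair spans ranged from 0.23 to 0.30, 0.44 to 0.60, 0.13 to 0.20, 0.29 to 0.42, 0.24 to 0.32 and 0.24 to 0.41, in the order above. Signs turned for miR-148b-3p on day 14 minus day 7 (-0.13 to 0.11), miR-152 on day 14 minus day 7 (-0.034 to 0.14), miR-26a on day 14 minus day 1 (-0.17 to 0.048) and miR-26a on day 7 minus day 4 (-0.0077 to 0.048).

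Replicate numbers did not pair the arrays, since 8 of 30 same-numbered pairs had a correlation of deviations over 0.1, against 25 of 60 pairs with different numbers. With the replicate block the calls were 147, 156, 151 and 156 for days 1, 4, 7 and 14 against day 0 and 127, 13, 42 and 133 for the other comparisons in the order above, miR-26a passed for day 14 against day 7 (limma adjusted p = 0.0463), and all 6 pairs kept their calls.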
